A study of Homo sapiens with 2 samples.

Results

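Forkhead (FOX) and SOX genes encode 2 families of DNA-binding transcription factors, and 46 of them were measured among the 18277 rows of the expression table. They were taken by symbol: FOX followed by a letter from A to S and a number, or SOX followed by a number, without FOXP1. This gave 32 forkhead and 14 SOX genes, each with 1 row. The cells were U2OS, an established human osteosarcoma line, growing asynchronously and given 0.3 µM aphidicolin, an inhibitor of replicative DNA polymerases, for 18 h. RNA carrying a poly(A) tail was sequenced in 2 libraries of this 1 group, and nothing in the labels says whether they came from separate cultures. No untreated cells were analysed here, so every value is a level in treated cells and not a response.

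Forkhead proteins bind DNA through a winged-helix domain, and SOX proteins bind the minor groove with an HMG box and bend the DNA. Most members of both families act in the development of a few tissues, and only some work in nearly every dividing cell. FOXM1 drives genes of G2 and mitosis, FOXO proteins act when growth factor signalling is low, and SOX9 is the master regulator of cartilage, a lineage close to bone.

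Of 14 osteoblast and mesenchyme markers, 12 were listed and 10 reached 1 RPKM (reads scaled to exon length and to library size) in both libraries, with summed levels of 796 RPKM in replicate 1 and to 804 RPKM in replicate 2. The matrix genes SPARC (279.9 ± 3.7 RPKM) and COL1A1 (209.0 ± 0.88) and the filament gene VIM (249.0 ± 0.23) led them (SD, n = 2). COL1A2, the partner chain of COL1A1, stood at 0.0515 ± 0.044 RPKM and the osteocalcin gene BGLAP at 0.277 ± 0.059, while SP7 and DLX5 were not listed. The libraries held 13227805 reads in replicate 1 and 13020149 in replicate 2, both recovered from the RPKM. The forkhead and SOX genes took 25906 and 25121 of these reads, or 0.196% and 0.193%. The table holds no value at 0, so genes absent from it are called not listed.

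Expression above 1 RPKM was found for most forkhead genes and for 7 SOX genes. In both libraries 27 of the 46 genes (58.7%) reached that level, beside 66.7% of all 17912 entries. The forkhead share was 20 of 32 (62.5%) and the SOX share 7 of 14 (50%). The SOX count depended on the scale: 12 of 14 reached 1 CPM (reads scaled to library size alone), beside 78.1% of entries. The count was also 12 with 10 reads in both libraries, beside 80.8%, and at 1 TPM (RPKM scaled to a fixed sum), beside 81.6%. TPM is RPKM times a constant in each library, so 1 TPM is a looser cut on the RPKM scale. FOXM1 in replicate 1, for example, had 92.9 RPKM and 433 TPM. At 5 RPKM the members numbered 15 (32.6%), beside 42.8% of all entries, and at 20 RPKM they numbered 5 (10.9%), beside 13.9%. The median level was 3.51 RPKM for forkhead genes and 1.14 RPKM for SOX genes, beside 3.53 RPKM over all entries. A further 22 annotated protein-coding family genes, 17 forkhead and 5 SOX, were not listed. They included the neural genes SOX1, SOX3, SOX14 and SOX21, the thymus gene FOXN1, the germ cell gene SOX30, and FOXB1, FOXD3, FOXE1, FOXI1, FOXL2 and FOXQ1. Taking these as 0, 26 of 67 annotated protein-coding family genes (38.8%) reached the level, beside 56.5% of all 19887 annotated protein-coding genes. None of these shares was tested.

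A few genes made up most of each family's RNA. FOXM1 gave 34.2% of the summed forkhead RPKM in replicate 1 and 36.3% in replicate 2, and SOX12 gave 36.8% and 39.1% of the SOX sum. The 3 highest SOX genes, SOX12, SOX9 and SOX4, together held 81.7% of the SOX sum in each library. Among forkhead genes no mean level lay between 0.591 RPKM and 1.25 RPKM, whereas SOX genes lay on both sides of 1 RPKM with no such gap.

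RefSeq promoter windows were found for 28 of the 46 members, too few for a comparison of promoter content across them. The 250 bases before the start (GRCh38.p14) are shown for SOX12 and FOXP4, the highest SOX and forkhead genes with a window, and for FOXA1 and FOXP3, which had under 1 RPKM. Capitals mark the GC box (GGGCGG), the CCAAT box (CCAAT) and the TATA word (TATAAA), searched on both strands. Among 27305 RefSeq windows of that length, 42.3% hold the GC box, 33% the CCAAT box and 11.1% the TATA word. The positions are chr20:325302-325551 on the plus strand for SOX12, chr6:41546131-41546380 on the plus strand for FOXP4, chr14:37595250-37595499 on the minus strand for FOXA1 and chrX:49264711-49264960 on the minus strand for FOXP3.
SOX12: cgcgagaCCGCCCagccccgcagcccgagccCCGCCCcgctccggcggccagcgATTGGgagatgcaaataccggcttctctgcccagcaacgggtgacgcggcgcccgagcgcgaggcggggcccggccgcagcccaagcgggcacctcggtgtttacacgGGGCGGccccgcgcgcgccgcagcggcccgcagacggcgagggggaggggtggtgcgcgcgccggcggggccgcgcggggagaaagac
FOXP4: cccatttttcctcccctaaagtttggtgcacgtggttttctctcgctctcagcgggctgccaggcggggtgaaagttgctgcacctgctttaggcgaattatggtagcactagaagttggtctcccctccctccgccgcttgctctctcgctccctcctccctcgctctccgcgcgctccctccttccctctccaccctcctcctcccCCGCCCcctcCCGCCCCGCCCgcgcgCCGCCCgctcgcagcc
FOXA1: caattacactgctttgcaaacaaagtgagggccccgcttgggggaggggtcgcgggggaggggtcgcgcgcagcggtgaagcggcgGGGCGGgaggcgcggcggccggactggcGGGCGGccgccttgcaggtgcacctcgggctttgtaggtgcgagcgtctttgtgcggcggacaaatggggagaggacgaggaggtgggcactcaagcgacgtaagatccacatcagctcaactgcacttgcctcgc
FOXP3: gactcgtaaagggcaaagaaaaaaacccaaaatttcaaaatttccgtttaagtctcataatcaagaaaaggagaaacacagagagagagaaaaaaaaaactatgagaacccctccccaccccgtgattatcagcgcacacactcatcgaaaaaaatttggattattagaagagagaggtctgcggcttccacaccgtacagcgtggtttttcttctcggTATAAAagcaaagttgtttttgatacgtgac

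The GC box matched 3 times in the SOX12 window, 4 times in that of FOXP4, where a pair of matches overlaps by 1 base, and 2 times in that of FOXA1. The CCAAT box matched in SOX12, and the TATA word in FOXP3. The windows hold 42 CG dinucleotides for SOX12, 21 for FOXP4, 26 for FOXA1 and 10 for FOXP3. These windows are examples, and a relation of their content to level was not tested. A match is a description of letters and not evidence of binding.

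**Figure D1:**
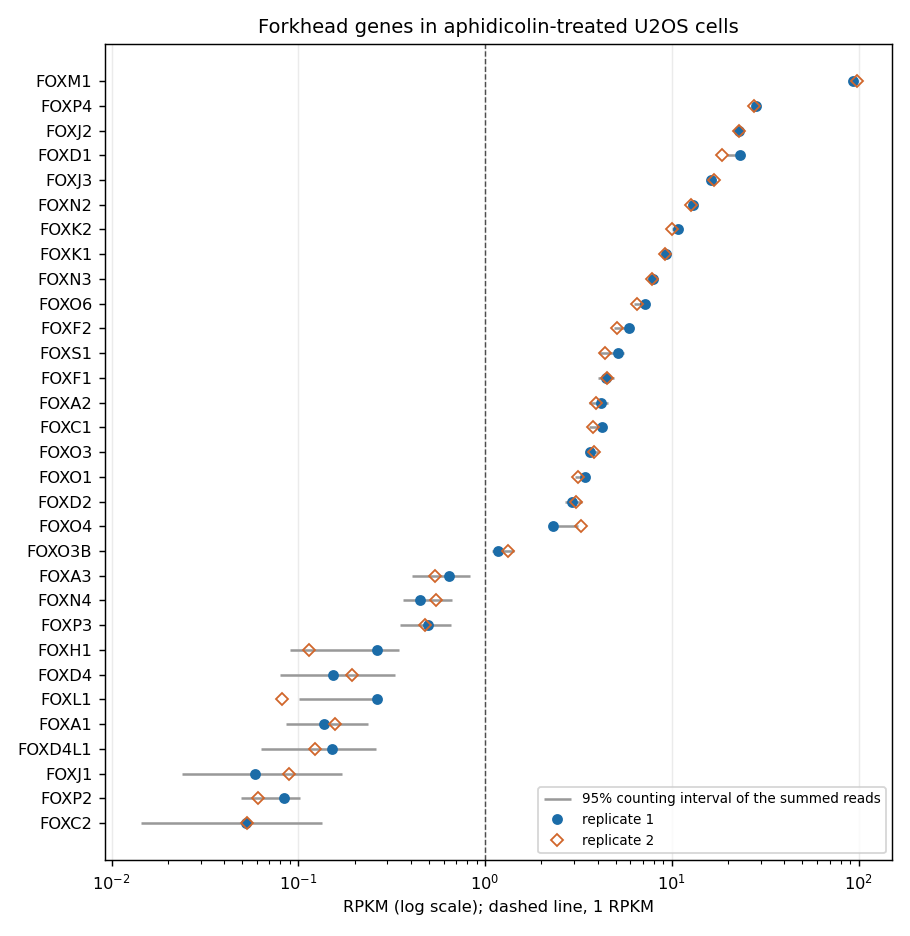
RPKM of 31 of the 32 forkhead genes in aphidicolin-treated U2OS cells on a log axis, with filled circles for replicate 1, open diamonds for replicate 2 and grey bars for the 95% Poisson interval of the reads of both libraries. FOXM1 stands apart at 95.2 RPKM, and 11 genes lie left of the dashed line at 1 RPKM.

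FOXM1, the activator of G2 and mitotic genes, had 92.9 RPKM in replicate 1 and 97.6 RPKM in replicate 2, from 6020 and 6224 reads. Its mean of 95.2 ± 3.3 RPKM (SD, n = 2) was 3.40 times that of FOXP4, the next forkhead gene, and the libraries of these genes did not overlap. FOXM1 lies on chromosome 12 from 2857681 to 2877155 (GRCh38), and its exons share 15.9% of their bases with annotated exons of ITFG2. Reads in the shared bases cannot be assigned to either gene without strand, and the use of strand is not given in the sources used here.

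Partners and targets of FOXM1 were abundant as well. Of 24 listed genes of that kind 23 reached 1 RPKM, with a median of 36.1 RPKM, beside 3.53 RPKM over all entries. MYBL2, which encodes the B-MYB protein that binds the same promoters before FOXM1 does, was highest at 243.5 ± 3.6 RPKM (SD, n = 2). TOP2A, which untangles DNA, and CCNB1, the mitotic cyclin, followed at 170.9 ± 3.0 and 157.2 ± 4.0 RPKM. The MuvB subunit genes LIN54, LIN52 and LIN9 were lower, between 9.49 and 10.9 RPKM, and RBBP4, of the same complex, was at 17.8 ± 0.11 RPKM. LIN37, another MuvB subunit gene, had 0.992 RPKM in replicate 1 and 1.61 RPKM in replicate 2, and 54.0% of its exonic bases are shared with other annotated genes.

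FOXP4, FOXJ2, FOXJ3, FOXN2, FOXN3, FOXK1 and FOXK2, known from many tissues, were among the 9 highest forkhead genes. FOXP4, a repressor that pairs with other FOXP proteins, had 28.4 and 27.6 RPKM in replicates 1 and 2. FOXJ2 had 22.8 and 22.9 RPKM and FOXJ3 had 16.2 and 16.9 RPKM, so the FOXJ2 level was above the FOXJ3 level in both libraries. FOXN2 was at 12.9 and 12.6 RPKM, above FOXN3 at 7.94 and 7.85 RPKM. FOXN3 was first found as a human gene that suppresses checkpoint defects of yeast.

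FOXK1 and FOXK2, which bind the deubiquitinase BAP1 and carry Dishevelled proteins into the nucleus, were close to each other. FOXK2 had 10.8 and 10.0 RPKM in replicates 1 and 2, and FOXK1 had 9.34 and 9.15 RPKM. FOXK2 shares 14.1% of its exonic bases with other genes. All 10 listed FOXK partners reached 1 RPKM, beside 66.7% of all entries. They ran from 8.40 RPKM for DVL2 to 36.0 ± 0.59 RPKM for OGT (SD, n = 2), the enzyme that adds GlcNAc to BAP1 complexes. HCFC1 was at 27.6 ± 0.40 and DVL3 at 26.9 ± 0.63.

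The other measured members of subclasses P, J and N were below 1 RPKM. FOXP1 was left out by the selection and FOXN1 was not listed, so their levels are not known here. FOXP2, known for its part in speech, had 0.0833 and 0.0611 RPKM, or 18 and 13 reads, and FOXP4 was 388 times higher on the means. FOXP3, the factor of regulatory T cells, had 0.494 and 0.478 RPKM from 21 and 20 reads. FOXJ1, which switches on genes of motile cilia, had 2 reads in replicate 1 and 3 in replicate 2. FOXN4, a factor of retinal progenitors, had 0.449 and 0.543 RPKM from 21 and 25 reads.

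The T cell markers set beside FOXP3 were listed in 4 of 6 cases and reached 1 RPKM in 2, IKZF2 at 1.46 ± 0.10 RPKM and CD3D at 1.11 ± 0.046 (SD, n = 2), and CD3E and IL2RA were not listed. Their summed level was 3.80 RPKM in replicate 1 and 3.71 RPKM in replicate 2. Of the 5 multiciliated cell markers set beside FOXJ1, 2 reached 1 RPKM. These were CCNO at 8.11 ± 0.96 RPKM and MCIDAS at 6.08 ± 0.35, neighbouring genes that act in ciliated cells. The cilium genes DNAH5, DNAI1 and TPPP3 were between 0.166 and 0.659 RPKM, and the list summed to 15.8 RPKM in replicate 1 and 15.2 RPKM in replicate 2. In bulk RNA, a gene used weakly by all cells and one used by few cells cannot be told apart.

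FOXO genes were expressed at moderate levels, and FOXO6 led them. The FOXO1, FOXO3 and FOXO4 proteins are phosphorylated by AKT and then held outside the nucleus by 14-3-3 proteins. FOXO6 had 7.22 and 6.53 RPKM in replicates 1 and 2, FOXO3 had 3.65 and 3.82 RPKM, and FOXO1 had 3.41 and 3.16 RPKM. FOXO4 had 2.31 RPKM in replicate 1 and 3.26 RPKM in replicate 2, a gap of 1.41-fold from 116 and 161 reads and the widest among the 27 genes above the level. FOXO6 was above the other 3 genes in both libraries, but FOXO1 and FOXO4 overlapped. FOXO6 lies on chromosome 1 from 41361922 to 41383590, and FOXO3 on chromosome 6 from 108559835 to 108684774.

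FOXO3B on chromosome 17, a copy of FOXO3, had 1.17 and 1.33 RPKM, from 96 and 107 reads if the smallest whole length that fits its RPKM is the one used. GENCODE release 29 annotates it as a processed pseudogene of 1928 bases, whereas that smallest length was 6188 bases, of which multiples would serve as well, and RefSeq lists it as a protein-coding gene also called ZNF286C. The copy matched the FOXO3 coding sequence at 99.1% of 1927 aligned bases, and 45.8% of its 100-base windows occur without a mismatch in the FOXO3 transcript. Reads of the pair are therefore uncertain, since counting could split or lose them. The 120-base stretch with most differences is shown because it is where reads can best be told apart, with the 4 differing bases in capitals. FOXO3 (chr6:108561706-108561825, plus strand) and FOXO3B (chr17:18672310-18672429, minus strand) read as follows.
FOXO3: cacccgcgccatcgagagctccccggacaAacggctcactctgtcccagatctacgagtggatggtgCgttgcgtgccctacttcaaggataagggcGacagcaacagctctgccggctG
FOXO3B: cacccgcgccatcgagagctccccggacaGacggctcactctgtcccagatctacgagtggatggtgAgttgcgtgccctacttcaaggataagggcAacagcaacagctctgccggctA

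Most regulators of FOXO proteins were expressed. Of 30 listed genes 29 (96.7%) reached 1 RPKM, beside 66.7% of all entries. The exception was the kinase gene DYRK1A at 0.887 ± 0.044 RPKM (SD, n = 2). DYRK1A had 325 and 298 reads in replicates 1 and 2, and all 30 genes reached 1 CPM in both libraries. The 14-3-3 gene SFN was highest at 305.7 ± 12.4 RPKM, followed by YWHAQ and YWHAE, which encode other 14-3-3 proteins, at 188.9 ± 7.1 and 146.9 ± 4.5. The kinase genes AKT1 and AKT2 were close to each other, at 10.8 ± 0.068 and 10.2 ± 0.52.

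Of the 25 FOXO targets that were listed 22 (88%) reached the level, beside 66.7% of all entries. The median of the 25 was 6.09 RPKM. CDKN1A at 78.6 ± 0.47, CITED2 at 35.2 ± 0.86 and GADD45A at 24.0 ± 0.26 RPKM were highest (SD, n = 2). Many of these genes also answer to other factors, CDKN1A and GADD45A to p53. Below the level were IRS2 with 1 read in each library, TNFSF10 with 3 in each, and PDK4 at 0.495 ± 0.017 RPKM, while the liver genes G6PC1 and PCK1, the muscle gene TRIM63 and FASLG were not listed. SOD2 had several rows and was left out.

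Forkhead genes known from mesenchyme ranged widely in level. FOXD1, known from kidney stroma and the fourth highest forkhead gene, had 23.0 RPKM in replicate 1 and 18.6 RPKM in replicate 2, and FOXD2 had 2.93 and 3.06 RPKM. FOXD1 lies on chromosome 5 from 73444827 to 73448527 and shares 16.2% of its exonic bases with its antisense gene. FOXF2 had 5.86 and 5.08 RPKM and FOXF1 had 4.45 and 4.47 RPKM, both genes of gut and lung mesenchyme that respond to hedgehog signals. FOXS1, a gene of cells along vessel walls, had 5.17 and 4.37 RPKM. FOXC1, needed in mesenchyme of the eye and skull, had 4.21 and 3.76 RPKM.

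Neighbouring forkhead genes differed in level. On chromosome 16, FOXF1 (86510527 to 86515418), FOXC2 (86566829 to 86569728) and FOXL1 (86576368 to 86582160) are neighbours, and FOXL1 starts 60.95 kb past the end of FOXF1. FOXF1 had 207 and 205 reads in replicates 1 and 2, against 2 and 2 for FOXC2 and 13 and 4 for FOXL1. Its mean RPKM was 84.9 times that of FOXC2, which acts in lymphatic vessels, and 25.9 times that of FOXL1, a gene of gut mesenchyme. The ratio to FOXL1 was 16.9 in replicate 1 and 54.5 in replicate 2. FENDRR, the RNA transcribed away from FOXF1, was at 0.0499 ± 0.0084 RPKM (SD, n = 2), from 4 and 5 reads. In the cluster on chromosome 6, FOXF2 (1389576 to 1395603) and FOXC1 (1609972 to 1613897) were both above 1 RPKM and FOXQ1 was not listed.

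**Figure D2:**
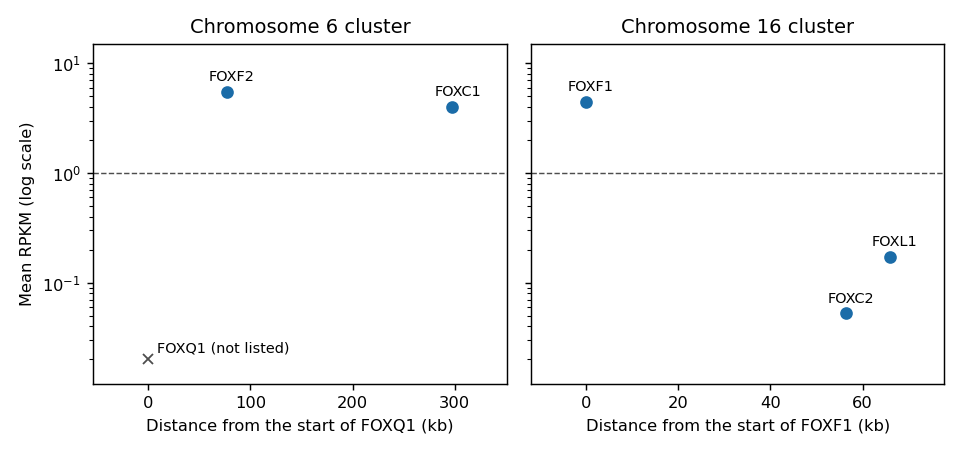
Mean RPKM of the 2 libraries (log axis) against the distance in kb from the first gene of 2 forkhead clusters, with the dashed line at 1 RPKM and a cross, at an arbitrary height, for FOXQ1, which was not listed. FOXF1 lies above the line at 4.46 RPKM while FOXC2 and FOXL1 lie below it at 0.0526 and 0.172 RPKM.

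Of the FOXA genes, FOXA2 alone reached 1 RPKM. FOXA proteins open closed chromatin in liver, lung and pancreas. FOXA2 had 4.15 and 3.92 RPKM in replicates 1 and 2, from 143 and 133 reads, whereas FOXA1 had 0.137 and 0.157 RPKM from 8 and 9 reads, a ratio of 27.5 on the means. FOXA3 had 0.640 and 0.542 RPKM from 18 and 15 reads. Of 7 endoderm and hepatocyte markers 4 were listed and GATA4 alone reached 1 RPKM, at 4.10 ± 0.027 (SD, n = 2). HNF4A was at 0.0365 RPKM, and ALB and TTR were not listed. That list summed to 5.08 RPKM in replicate 1 and 4.80 RPKM in replicate 2. LINC00261, an RNA next to FOXA2, had 9 and 4 reads, and 86.1% of its exonic bases are shared with other genes.

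The remaining forkhead genes had few reads. FOXH1, a partner of SMAD proteins, had 7 reads in replicate 1 and 3 in replicate 2, with 31.6% of its exonic bases shared with KIFC2. FOXD4 had 4 and 5 reads and its copy FOXD4L1 had 5 and 4. Their coding sequences matched at 98.8% of 1314 aligned bases, so these reads too are uncertain.

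**Figure D3:**
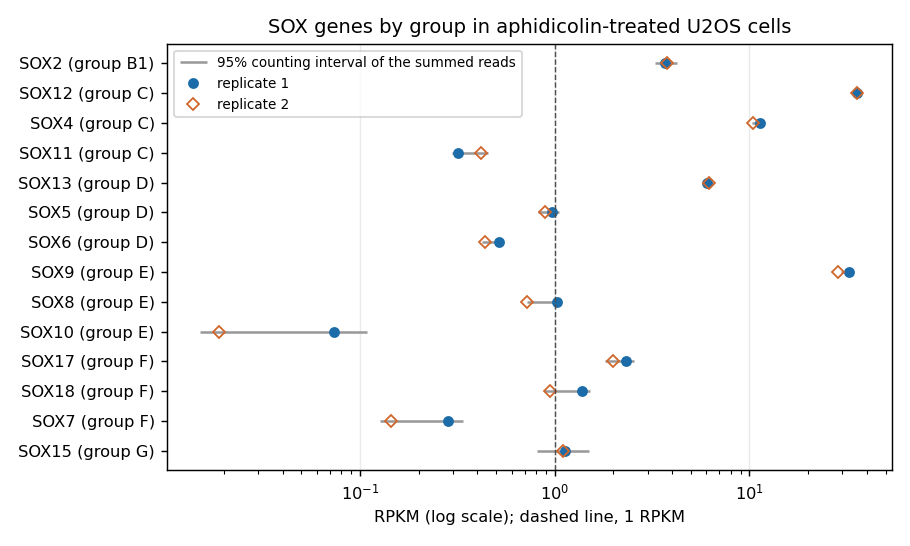
RPKM of the 14 SOX genes on a log axis, ordered by SOX group, with filled circles for replicate 1, open diamonds for replicate 2 and grey bars for the 95% Poisson interval of the reads of both libraries. Each of groups C, D, E and F has a gene right of the dashed line at 1 RPKM and another left of it in both libraries.

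SOX12, SOX9 and SOX4 were the highest SOX genes. SOX12, a group C gene whose mouse protein activates transcription weakly, had 35.7 and 35.6 RPKM in replicates 1 and 2, from 2187 and 2148 reads. SOX4, a group C gene often high in tumours, had 11.3 and 10.5 RPKM. SOX11, the third of the group and best known from neurons, had 0.319 and 0.418 RPKM from 38 and 49 reads, and SOX12 was 96.8 times higher on the means. SOX12 is a single-exon gene on chromosome 20 from 325595 to 330224.

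SOX9 had 32.4 RPKM in replicate 1 and 28.4 RPKM in replicate 2, from 1684 and 1455 reads. Its mean of 30.4 ± 2.8 RPKM (SD, n = 2) was below that of SOX12, at 35.7 ± 0.055, and the libraries of these genes did not overlap. SOX9 lies on chromosome 17 from 72121020 to 72126420. SOX8, a close relative, had 1.03 and 0.722 RPKM, and SOX10, the factor of neural crest and pigment cells, had 4 reads in replicate 1 and 1 in replicate 2. SOX9-AS1, an RNA from the same region, had 16 and 11 reads.

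SOX5 and SOX6, which work with SOX9 in cartilage, were much lower than it. SOX5 had 0.964 and 0.896 RPKM in replicates 1 and 2, from 141 and 129 reads. SOX6 had 0.520 and 0.438 RPKM, from 135 and 112 reads. SOX9 was thus 32.7 and 63.5 times higher on the mean RPKM, which is divided by length. The lengths were 11062 bases for SOX5 and 19640 for SOX6, against 3931 for SOX9, so the gaps in reads were smaller. SOX13, the third gene of their group D, had 6.03 and 6.23 RPKM.

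Cartilage genes driven by this trio were split. Of 14 listed genes 7 reached 1 RPKM, with a median of 1.34 RPKM, beside 3.53 RPKM over all entries. HAPLN1, which links hyaluronan to proteoglycans, was highest at 66.2 ± 4.0 RPKM (SD, n = 2), followed by the collagen genes COL11A1 at 12.6 ± 0.33 and COL9A2 at 7.61 ± 0.060. ACAN, the aggrecan gene, was at 1.80 ± 0.074. COL10A1, the collagen gene of hypertrophic cartilage, had 3 and 2 reads, and COL2A1, the main cartilage collagen, had 2 reads in replicate 1 and 8 in replicate 2. COL9A1 and COMP were not listed.

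SOX2 and the group F genes were detected as well. SOX2, of group B1 and known from pluripotent and neural stem cells, had 3.67 and 3.79 RPKM in replicates 1 and 2, from 122 and 124 reads. Of 5 pluripotent cell markers 1 was listed, POU5F1 with 0.236 and 0.319 RPKM. Of 7 neural progenitor markers 3 were listed and 2 reached 1 RPKM, NES at 13.2 ± 0.92 and OLIG2 at 2.59 ± 0.36 (SD, n = 2), with a sum of 17.0 RPKM in replicate 1 and 16.2 RPKM in replicate 2. PAX6, HES5, FABP7 and DCX were not listed.

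SOX17, a group F gene of endoderm and vessels, had 2.32 and 1.997 RPKM from 72 and 61 reads. SOX18 had 1.38 RPKM in replicate 1 and 0.949 RPKM in replicate 2, and SOX7 had 12 and 6 reads, with 39.4% of its exonic bases shared with PINX1. Of 10 endothelial markers 9 were listed and 2 reached 1 RPKM, EGFL7 at 19.9 ± 0.94 and ERG at 2.02 ± 0.027 (SD, n = 2), with a sum of 23.9 RPKM in replicate 1 and 24.6 RPKM in replicate 2. CLDN5 was at 0.765 RPKM, the other listed markers lay between 0.0283 RPKM for TIE1 and 0.571 RPKM for TEK, and KDR was not listed. Neural crest and melanocyte markers, set beside SOX10, reached the level in 2 of 6 listed cases, MITF at 6.58 ± 0.091 and ERBB3 at 2.04 ± 0.14, with sums of 9.32 and 9.61 RPKM, while PMEL was at 0.430 RPKM and PAX3 and S100B were not listed. All these levels were measured in the U2OS line, and no other cell type was sampled. What sets the levels of FOXA2, FOXP3, FOXJ1 and these SOX genes in that line was not tested.

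SOX proteins often bind beside POU and PAX factors, and they modulate TCF and beta-catenin. Of 15 such genes 10 were listed and 7 of these (70%) reached 1 RPKM, close to the 66.7% of all entries. CTNNB1, the beta-catenin gene, was highest at 25.9 ± 0.29 RPKM, then TCF7L1 at 9.21 ± 0.65 and TCF7L2 at 7.80 ± 0.26 (SD, n = 2). POU3F3 was at 7.17 ± 0.21, LEF1 at 6.85 ± 0.65, POU2F1 at 3.60 ± 0.12 and PAX2 at 1.58 ± 0.16 RPKM. Below the level were TCF7 at 0.0378 RPKM, POU3F2 at 0.0389 and POU5F1, and PAX3, PAX6, POU3F1, POU3F4 and POU4F1 were not listed.

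Genes nearest to 1 RPKM were mostly SOX genes. Ranked by the lower of the libraries, the 3 just above were SOX15, FOXO3B and SOX17, and the 3 just below were SOX18, SOX5 and SOX8. SOX15, the group G gene, had 1.14 and 1.1 RPKM from 22 and 21 reads, and its 95% Poisson interval ran from 0.809 to 1.51 RPKM. The interval was 0.883 to 1.51 RPKM for SOX18, 0.822 to 1.05 for SOX5 and 0.717 to 1.06 for SOX8. These intervals cover counting error only, and on which side of the level these 4 genes fall is not resolved at this depth. Of the 19 genes below the level, 14 had under 50 reads in both libraries together.

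**Figure D4:**
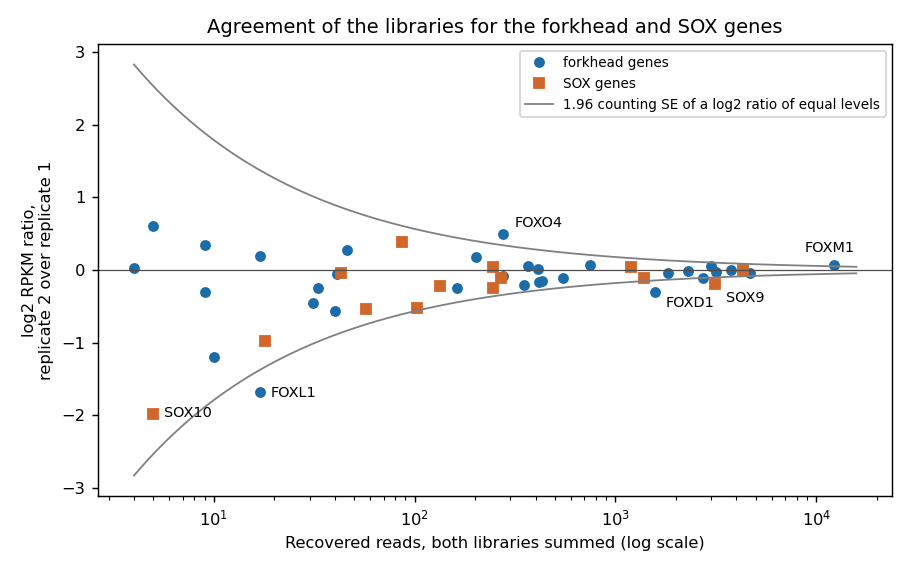
Log2 ratio of RPKM, replicate 2 over replicate 1, against the recovered reads of both libraries (log axis) for forkhead genes (circles) and SOX genes (squares), with grey lines at 1.96 counting standard errors around equal levels. FOXD1, SOX9 and FOXL1 lie below the lower line, FOXM1 and FOXO4 lie above the upper line, and SOX10, with 5 reads, has a wide ratio within the lines.

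The libraries gave nearly the same levels for the genes above 1 RPKM. None of the 27 differed by 1.5-fold or more, beside 0.77% of the 11944 entries at that level, and 18 differed by less than 1.1-fold. The median gap was 1.05-fold for the members and 1.05-fold for all such entries. An exact binomial test on recovered reads, 2-sided and with Benjamini-Hochberg adjustment over the 11944 entries, called 2 members, beside 1.66% of entries. Both were higher in replicate 1, a direction in which 0.661% of entries were called, and no member was among the 0.996% of entries called higher in replicate 2. FOXD1 had 872 and 694 reads (adjusted p = 0.0056) and SOX9 had 1684 and 1455 (adjusted p = 0.033, both by the exact test). An unadjusted p under 0.05 was found for 4 of the 27 (also FOXM1 and FOXO4), beside 11.8% of entries. This test compares the libraries and covers counting error alone.

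Many members are short genes with 1 or few exons. Of the 11 single-exon members 7 reached 1 RPKM, beside 47.5% of 583 single-exon entries, and of the 35 others 20 did, beside 69.3% of 16400. Exon numbers are from GENCODE, and the 7 include FOXO3B, whose RPKM rests on a length greater than its GENCODE exon. Among members with 5 or more exons in at least 1 annotated transcript, 9 of 15 reached the level, beside 72.7% of such entries. Exons sharing 10% or more of their bases with another gene were found in 6 members: FOXM1, FOXD1, FOXK2, FOXN3, FOXH1 and SOX7.

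RNAs named for their position beside members were mostly scarce. Of 10 listed RNAs 3 (30%) reached 1 RPKM, beside 66.7% of all entries. They were FOXD2-AS1 at 12.9 ± 0.0057, FOXP4-AS1 at 3.39 ± 0.21 and FOXN3-AS1 at 2.48 ± 0.072 RPKM (SD, n = 2). FOXD2-AS1 was thus above FOXD2 itself, at 2.99 ± 0.091 RPKM. SOX2-OT, whose gene contains SOX2, had 5 and 6 reads although SOX2 had 122 and 124.

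**Figure D5:**
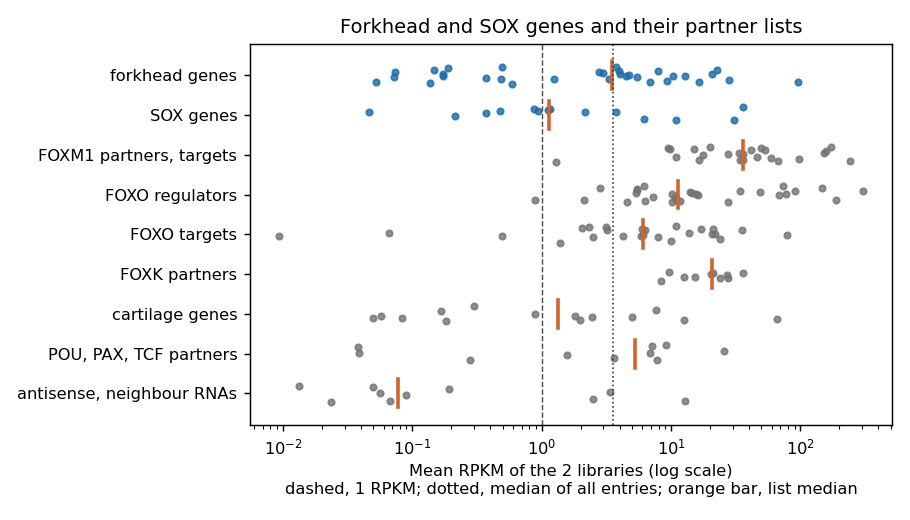
Mean RPKM of the 2 libraries on a log axis for forkhead and SOX genes (blue) and for listed genes of 7 partner lists (grey), with orange bars at list medians, a dashed line at 1 RPKM and a dotted line at the median of all entries, 3.53 RPKM. Partners and targets of FOXM1 have a median of 36.1 RPKM and antisense or neighbouring RNAs one of 0.0779 RPKM.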

How the data were processed

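The 1 table the authors deposited gives RPKM for each of the 2 libraries, per the file headers. Trim Galore, HISAT2 and featureCounts are named with the builds hg38 and GRCh38.p13, per the submitters' processing notes. Versions, annotation, strand and filters are not stated in those notes. Symbols with several rows were left out, and symbols with equal values were taken once in genome-wide counts. Reads were recovered from the deposited RPKM, whose library ratios were ratios of whole numbers (relative tolerance 2e-13); the whole factor per gene was set from GENCODE release 29 exonic length. For 39 of 46 members, and 91.2% of matched entries, it came within 10% of GENCODE's length. Recovery and the binomial test were tested on data simulated with GENCODE lengths and Poisson counts. The length equalled GENCODE's for 12 of 46 members, so this simulation does not cover other lengths or spread beyond counting. TMM scaling (0.998 for replicate 2) preceded the library test. SD and n = 2 refer to both libraries, whose spread may be technical, since nothing says that they were separate cultures. PCR reads without molecular identifiers are not independent molecules. Values of 1 member below 1 RPKM are not reported here, nor are those of list genes that the text does not name. Every member at or above 1 RPKM was named, with the 3 highest of each list. Members and lists were chosen with earlier results of these data known. Alternatives covered the level, the scale, each library alone, the test and the fold. Python 3.11.15, numpy 2.4.6, scipy 1.17.1, pandas 2.3.3 and matplotlib 3.10.9 were used.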

Additional observations from a re-analysis of the deposited data

How the results depend on the processing

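At 5 RPKM the members above the level numbered 15 in place of 27, the forkhead genes 11 in place of 20, the SOX genes 4 in place of 7 and the single-exon members 2 in place of 7, by construction of a stricter level; the single-exon alternatives were chosen after seeing the data. SOX genes numbered 12 at 1 TPM, by construction of a looser level, since TPM is RPKM times a constant in each library. They also numbered 12 at 1 CPM (not divided by length) and 12 with 10 recovered reads in both libraries, and the cause was not tested. No other count of members, nor that of the 100 partner genes, moved by over 1.5 times, and without either replicate they ran from 27 to 29 for all members, 20 for forkhead genes and 7 to 9 for SOX genes. Members that differed between libraries numbered 0 at 1.5-fold, 2 by the exact binomial test and 5 without the filter on low values. Those 5 were FOXL1, SOX7, FOXH1, FOXJ1 and SOX10, all below 1 RPKM and with 1 to 13 reads per library. The share of all entries past 1.5-fold without that filter is not given here. Of 90 counts of single lists, 72 stayed within 1.5 times and 18 did not, 11 higher and 7 lower, with 16 of the 18 among markers of other tissues. No paired analysis was possible because the series has 1 group. The promoter comparison was void because 28 of 46 members matched. Depth limits the 14 members with under 50 reads.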
